A study of Arabidopsis thaliana with 32 samples.

Results

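The cuticle and suberin genes described here are 41 of the 27655 genes in the table, taken from a list of gene identifiers. They are 3 genes of the alkane branch and 2 of the alcohol branch of wax synthesis, 9 of fatty acid elongation, 2 of acyl activation, 8 of cutin synthesis, 7 of suberin synthesis, 3 suberin and 3 cuticle transport genes, and 4 regulators. Of the 41, 39 passed the filter on low values (4 or more libraries with an FPKM of 0.5 or more, FPKM being fragments divided by exon length and by the mapped total of the library), as did 19937 genes in all. *SHN1* and *MYB41* did not pass and are given by their levels only.

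RNA was sequenced from whole Arabidopsis (*Arabidopsis thaliana*) seedlings of the Col-0 ecotype grown for 96 h in continuous red (R) light at 20°C or 27°C. The genotypes were the wild type Col-0 and the mutants *med14-2*, *hmr-22*, and *pif4-2* in that background, with 4 libraries in each of the 8 groups. *pif4-2* and *med14-2* are T-DNA insertion lines, and *hmr-22* is a weak allele of *HEMERA*, so each mutant is known here from a single line. The study compared how PIF4, a transcription factor of warmth-induced growth, its coactivator HEMERA, and the Mediator subunit MED14 bear on the response to warm temperature.

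The plant cuticle seals the shoot surface. Its cutin is a polyester of hydroxylated fatty acids that epidermal cells join through glycerol, and its wax consists of very-long-chain alkanes, alcohols, and esters made from elongated fatty acids. Suberin is a related polyester with aromatic parts and primary alcohols that is laid down in the root endodermis, in wounds, and in seed coats. In RNA from whole seedlings, fewer cells of a type and less RNA per cell cannot be told apart.

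Depth, recovered from the FPKM values, was 11911240 to 16883321 mapped fragments per library. The share of fragments in nuclear genes was 35.2 to 74.7% in the libraries labelled *hmr-22*, and 55.9% in replicate 1 of *med14-2* at 27°C. It also went with temperature, at 68.0 to 82.8% at 20°C and 91.9 to 93.0% at 27°C in Col-0. In *pif4-2* it was 68.4 to 86.0% and 91.6 to 96.1%, and in *med14-2* 79.0 to 87.1% and 55.9 to 95.8%. FPKM were therefore divided by a scaling factor per library (trimmed mean of M values), which was 0.197 to 0.647 in *hmr-22* and 0.871 to 1.83 in the other libraries. Values below are these scaled FPKM unless deposited FPKM are named, and each log2 change is on the log2(scaled FPKM + 0.25) scale with its standard error (SE). Without scaling, the median change of all genes moved from 0.02 to 0.49 for warmth in Col-0, from 0.18 to 0.74 in *hmr-22*, from −0.29 to −1.69 for *hmr-22* against Col-0 at 20°C, and from −0.13 to −1.45 at 27°C. *HMR* was at 0.217 to 2.08 in the *hmr-22* libraries and at 11.5 or more in all others. The study describes *hmr-22* as an amino acid change in the transactivation domain of HEMERA. Why the transcript was also low in these libraries was not tested. *MED14* was higher at 20°C in every library labelled *med14-2* (7.82 to 8.56) than in Col-0 (4.37 to 5.40, exact permutation p = 0.0286), and at 27°C the groups overlapped (5.6 to 6.56 and 4.81 to 5.68). The study describes reduced *MED14* expression in this line, which these values do not show. FPKM per gene do not tell on which side of an insertion the fragments lie, so the label was not tested. Below, *med14-2* stands for the libraries so labelled. *PIF4* at 27°C was 2.86 to 4.99 in *pif4-2* and 12.4 to 15.6 in Col-0, while at 20°C these groups overlapped (exact permutation p = 0.257).

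In Col-0 at 20°C the levels of the members spanned a wide range. *LTPG1*, a lipid transfer protein that carries wax to the surface, was highest at a mean of 103 ± 16 (SD, n = 4). *CER6*, the condensing enzyme of very-long-chain wax precursors, followed at 65.1 ± 9.90, and *PAS2*, the dehydratase of the same elongation cycle, at 61.6 ± 11.8. The libraries of *CER6* and *PAS2* overlapped, and those of *LTPG1* lay above both. At the other end, *WSD1*, the wax ester synthase, and *SHN1*, a regulator of cutin genes, were listed at 0 in all 4 libraries. *MYB41*, a regulator of suberin genes, ranged from 0.236 to 0.359 at 20°C in Col-0 and from 0 to 0.238 at 27°C, groups that overlapped (two-sided exact permutation p = 0.0571, where 4 against 4 libraries cannot go below 0.0286). In *med14-2* at 20°C it was at 0.0405 to 0.155, below Col-0 (exact permutation p = 0.0286). This p is not adjusted for the other comparisons of *MYB41*, in all of which the groups overlapped, and the gene is under the filter on low values.

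Warmth raised 8 of the 39 tested members in Col-0 and lowered none. The criteria, those of the study, were an adjusted p under 0.001, a change of 2-fold or more, and more than 1 deposited FPKM in the higher of the group means. Among all genes, 2.24% were called higher and 2.99% lower. By limma without adjustment, 2 members were lower at p under 0.05, and voom on recovered fragments called 1 lower. The 8 were spread over wax (*CER1*, *MAH1*), elongation (*KCS12*), cutin (*CYP86A4*, *GPAT6*, *DCR*), suberin (*FAR1*), and regulators (*MYB96*). Without *MAH1*, which passed the filter only through Col-0 at 27°C, they are 7. The median change was 0.40 over the members and 0.02 over all genes. Without scaling, 13 were called higher.

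*CER1* (AT1G02205), the enzyme that releases alkanes from wax precursors, had levels of 0.924, 1.01, 0.772, and 1.28 in the Col-0 libraries at 20°C and of 6.52, 6.26, 6.0, and 7.45 at 27°C. Its log2 change was 2.46 ± 0.28 (SE; adjusted p = 6.92e-08), and no library at 27°C overlapped with those at 20°C. *CER3*, its partner in alkane synthesis, changed by 0.53 ± 0.12 and was not called, although all 4 libraries at 27°C (19.4 to 27.4) were above those at 20°C (14.0 to 17.9). Of all genes, 20.5% had every Col-0 library at 27°C above every one at 20°C.

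*MAH1* (AT1G57750), the hydroxylase that turns alkanes into secondary alcohols and ketones, had 36, 43, 62, and 66 fragments at 27°C in Col-0 and 2, 0, 0, and 0 at 20°C. After depth and scaling, this was a ratio of 67.6 (95% exact interval 18.5 to 562, for counting error only). Of all 8 groups, Col-0 at 27°C was the only one with more than 5 *MAH1* fragments in any library. *MAH1* passed the filter through these 4 libraries alone, so the direction of its calls here and in the comparisons with the mutants was fixed by the filter, and its values are a description. It was not tested when any of the 4 was left out. *WSD1* showed a like pattern at lower counts, with 18, 18, 14, and 21 fragments at 27°C and none at 20°C in Col-0, at least 15.5-fold higher when 3 fragments are allowed over the group at 20°C. Its mean stayed under 1 FPKM, so it could not be called with warmth or against Col-0. *WSD1* passed the filter only through libraries of Col-0 and *pif4-2* at 27°C. The direction of its response differences in *med14-2* and *hmr-22* was therefore fixed by the filter, and these are a description.

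*KCS12* (AT2G28630), a condensing enzyme of fatty acid elongation, was at 0.451, 0.589, 0.439, and 0.375 in Col-0 at 20°C and at 7.04, 6.06, 11.1, and 10.5 at 27°C. The log2 change was 3.61 ± 0.29 (adjusted p = 1.11e-10). The other elongation genes did not pass in Col-0, with *KCS1* at 0.87 ± 0.23, *CER6* at 0.74 ± 0.16, *KCS2* at 0.62 ± 0.27, and *CER2*, a cofactor of elongation, at 0.40 ± 0.16. *KCS20*, *KCR1*, *PAS2*, and *CER10*, which encode a condensing enzyme and the remaining steps of the cycle, lay between −0.19 and −0.05. *LACS1* (−0.12 ± 0.19) and *LACS2* (0.20 ± 0.16), which activate fatty acids, and the cuticle transporters *ABCG11* (0.29 ± 0.13), *ABCG12* (0.13 ± 0.13), and *LTPG1* (0.08 ± 0.18) did not pass either.

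Among the cutin genes, *DCR* (AT5G23940), an acyltransferase needed for cutin, was at 2.27, 3.07, 3.36, and 3.23 in Col-0 at 20°C and at 17.1, 15.0, 13.8, and 13.7 at 27°C, a change of 2.23 ± 0.19 (adjusted p = 4.49e-10). *CYP86A4* (AT1G01600), a fatty acid hydroxylase, was at 0.405, 0.481, 0.696, and 0.418 and then at 2.73, 1.89, 3.56, and 3.24, a change of 2.03 ± 0.30 (adjusted p = 5.66e-06). *GPAT6* (AT2G38110), a glycerol acyltransferase of cutin synthesis, was at 0.575, 0.386, 0.557, and 0.531 and then at 1.79, 1.84, 2.31, and 2.12, a change of 1.57 ± 0.23 (adjusted p = 3.47e-06). For all 3 genes, every library at 27°C was above every library at 20°C, as for 20.5% of all genes. *GPAT4* and *GPAT8*, paralogs that act in cutin synthesis, changed by 0.08 ± 0.19 and −0.04 ± 0.20. The gene next to *GPAT4* on chromosome 1 is *CYP86A4*. *CYP77A6*, a hydroxylase for mid-chain positions, reached 1.01 ± 0.26 with an adjusted p of 0.00436 and was not called. *BDG1* and *HTH*, which act late in cuticle formation, were at 0.40 ± 0.16 and 0.28 ± 0.15.

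*FAR1* (AT5G22500), a reductase that makes primary fatty alcohols found in suberin, had the largest fitted log2 change in Col-0, though the ratio of the lower *MAH1* was larger. It was at 0.756, 1.04, 1.09, and 0.518 at 20°C and at 14.3, 13.4, 20.4, and 18.4 at 27°C, a change of 3.95 ± 0.28 (adjusted p = 1.12e-11). In deposited FPKM these libraries were at 0.921, 1.22, 1.19, and 0.667 and at 24.0, 23.7, 33.3, and 31.4. None of the other 9 suberin genes was called in Col-0. Of these, *FAR4*, *FAR5*, *GPAT5*, and *ABCG20* could not be called, as their means there stayed under 1 deposited FPKM. *ASFT*, the acyltransferase that adds ferulate to suberin, was at 12.5 to 15.1 at 20°C and at 5.06 to 8.32 at 27°C (log2 change −1.01 ± 0.27, adjusted p = 0.00601).

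*MYB96* (AT5G62470), a transcription factor that activates wax genes, was at 1.52, 1.58, 1.72, and 2.00 at 20°C and at 4.49, 3.52, 5.61, and 5.13 at 27°C. The change of 1.32 ± 0.27 passed (adjusted p = 0.000392), but the call was lost in 6 of the 8 fits that left out 1 library, with changes of 1.23 to 1.34. *MYB94*, its paralog, was at 0.35 ± 0.16. The pair share 4 windows of 50 bases in their gene sequences, so few reads could be split between them.

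In *pif4-2*, 8 members were called higher at 27°C and none lower, where 3% and 2.7% of all genes were called. By limma without adjustment, 3 were lower at p under 0.05, and voom called 1 lower. *CER1* rose from 0.618, 1.13, 0.614, and 0.475 to 8.24, 8.24, 4.88, and 6.35 (2.92 ± 0.28, adjusted p = 2.35e-09). *DCR* rose from 3.51 to 4.00 to a range of 19.8 to 26.4 (2.53 ± 0.19, adjusted p = 2.28e-11). *KCS12* (2.49 ± 0.29), *CYP86A4* (2.09 ± 0.30), *MYB96* (1.65 ± 0.27), *FAR1* (1.47 ± 0.28), *CYP77A6* (1.25 ± 0.26), and *GPAT6* (1.16 ± 0.23) made up the rest. Without replicate 2 of *pif4-2* at 27°C, 5 were called, and *FAR1* (1.37) was among those lost. *CYP77A6* lost its call in 7 of the 8 fits that left out 1 library (1.15 to 1.3) and *GPAT6* in 3 (0.97 to 1.11).

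The response of 2 members, *FAR1* and *MAH1*, was lower in *pif4-2* than in Col-0, where 0.943% of all genes were lower and 1.54% higher at an adjusted p under 0.05. No member was higher, with 0 at an unadjusted p under 0.05 by limma and 0 by voom. For *FAR1* the *pif4-2* libraries were at 0.978, 0.806, 0.973, and 1.29 at 20°C and at 3.31, 3.95, 2.74, and 2.97 at 27°C, and the difference of the responses was −2.48 ± 0.39 (adjusted p = 0.00026). *MAH1*, whose direction the filter fixed, had no fragment in any of the 8 *pif4-2* libraries, so Col-0 at 27°C was at least 59.5-fold higher when 3 fragments are allowed over the group. In fits without the *hmr-22* libraries, or of only the groups compared, 4 members differed in place of 2.

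Compared directly at 27°C, the same pair was lower in *pif4-2* than in Col-0, *FAR1* by −2.26 ± 0.28 (adjusted p = 3.80e-07). Of all genes, 1.1% were lower and 3.38% higher. No member was higher, though 2 were at an unadjusted p under 0.05 by limma and voom called 0. Without any 1 of the Col-0 libraries at 27°C only 1 member was called, since *MAH1* then failed the filter. At 20°C no member differed between *pif4-2* and Col-0, with 5 higher and 3 lower at an unadjusted p under 0.05 by limma and 0 called by voom, where 0.677% of all genes were higher and 0.105% lower.

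In the libraries labelled *med14-2*, warmth raised 11 members and lowered none, where 1.62% of all genes were called higher and 2.83% lower. By limma, 7 were lower at an unadjusted p under 0.05, and voom called 0 lower. The 11 were *CER1*, *GPAT6*, and *DCR*, which also passed in Col-0 and *pif4-2*, and 8 genes of suberin synthesis and transport. None of the 8 was called in Col-0 or in *pif4-2*. However, *FAR4*, *FAR5*, *GPAT5*, and *ABCG20* stayed under a mean of 1 deposited FPKM in both genotypes, and *ABCG2* did in *pif4-2*. These could not be called there whatever their change. *CER1* went from 0.305, 0.580, 0.586, and 0.275 to 5.56, 6.46, 8.15, and 8.71 (3.46 ± 0.28, adjusted p = 9.88e-11). *GPAT6* went from 0.408, 0.254, 0.512, and 0.262 to 2.52, 2.82, 2.79, and 2.60 (2.29 ± 0.23, adjusted p = 5.14e-09). The rise of *DCR* was 2.02 ± 0.19.

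**Figure D1:**
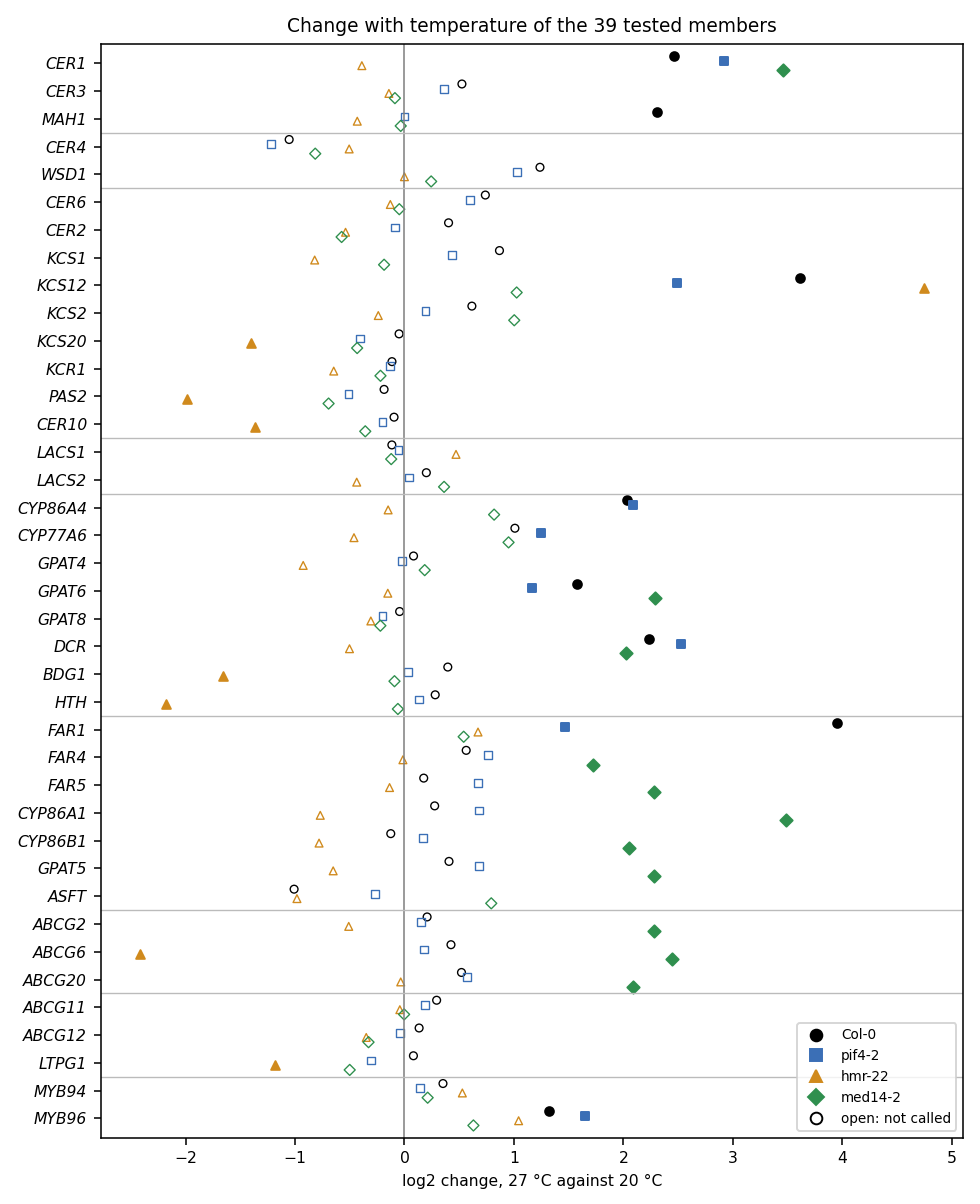
Log2 change from 20°C to 27°C (x axis) of each of the 39 tested members (y axis, grouped by role with lines between groups) in each of the 4 genotypes. Filled symbols passed the test and open ones did not. The suberin genes from *FAR4* to *ABCG20*, other than *ASFT*, have filled symbols right of 0 for *med14-2* alone (*ABCG6* is also filled for *hmr-22*, at −2.42), and *FAR1* is furthest right in Col-0 at 3.95.

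*CYP86A1* (AT5G58860), the hydroxylase of suberin fatty acids, had the largest of these changes. It was at 1.17, 1.48, 1.10, and 0.965 in *med14-2* at 20°C and at 11.8, 12.1, 26.0, and 15.9 at 27°C, a change of 3.48 ± 0.26 (adjusted p = 3.90e-11). In Col-0 at 27°C it was at 1.49, 1.48, 2.99, and 2.61, below every *med14-2* library. *GPAT5* (AT3G11430), the glycerol acyltransferase of suberin, was at 0.428, 0.281, 0.351, and 0.377 and then at 2.1, 2.29, 4.08, and 2.66 (2.28 ± 0.29, adjusted p = 6.20e-07). *CYP86B1*, which hydroxylates the longest suberin acids, was at 0.552, 0.992, 0.672, and 0.898 and then at 3.35, 3.35, 4.72, and 4.59 (2.05 ± 0.38, adjusted p = 0.000159). Its call was lost without replicate 1 at 20°C (1.94). *FAR5* (2.28 ± 0.25) and *FAR4* (1.72 ± 0.26), neighbouring reductases on chromosome 3 that make suberin alcohols, rose too.

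The transporters of suberin precursors moved with the enzymes. *ABCG6* was at 0.645, 0.762, 0.924, and 0.555 at 20°C and at 4.70, 4.44, 6.78, and 4.33 at 27°C (2.44 ± 0.33, adjusted p = 1.30e-06). *ABCG2* was at 0.227, 0.515, 0.494, and 0.393 and then at 2.64, 2.19, 3.49, and 3.47 (2.28 ± 0.29, adjusted p = 6.25e-07). *ABCG20* rose by 2.09 ± 0.23. In each of these 8 genes the groups did not overlap, which is likely for genes picked by their call. Of all genes, 15.9% had every *med14-2* library at 27°C above every one at 20°C. *ASFT* was at 9.58 to 11.2 at 20°C and at 15.2 to 22.3 at 27°C (0.79 ± 0.27, adjusted p = 0.0336) and was not called.

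**Figure D2:**
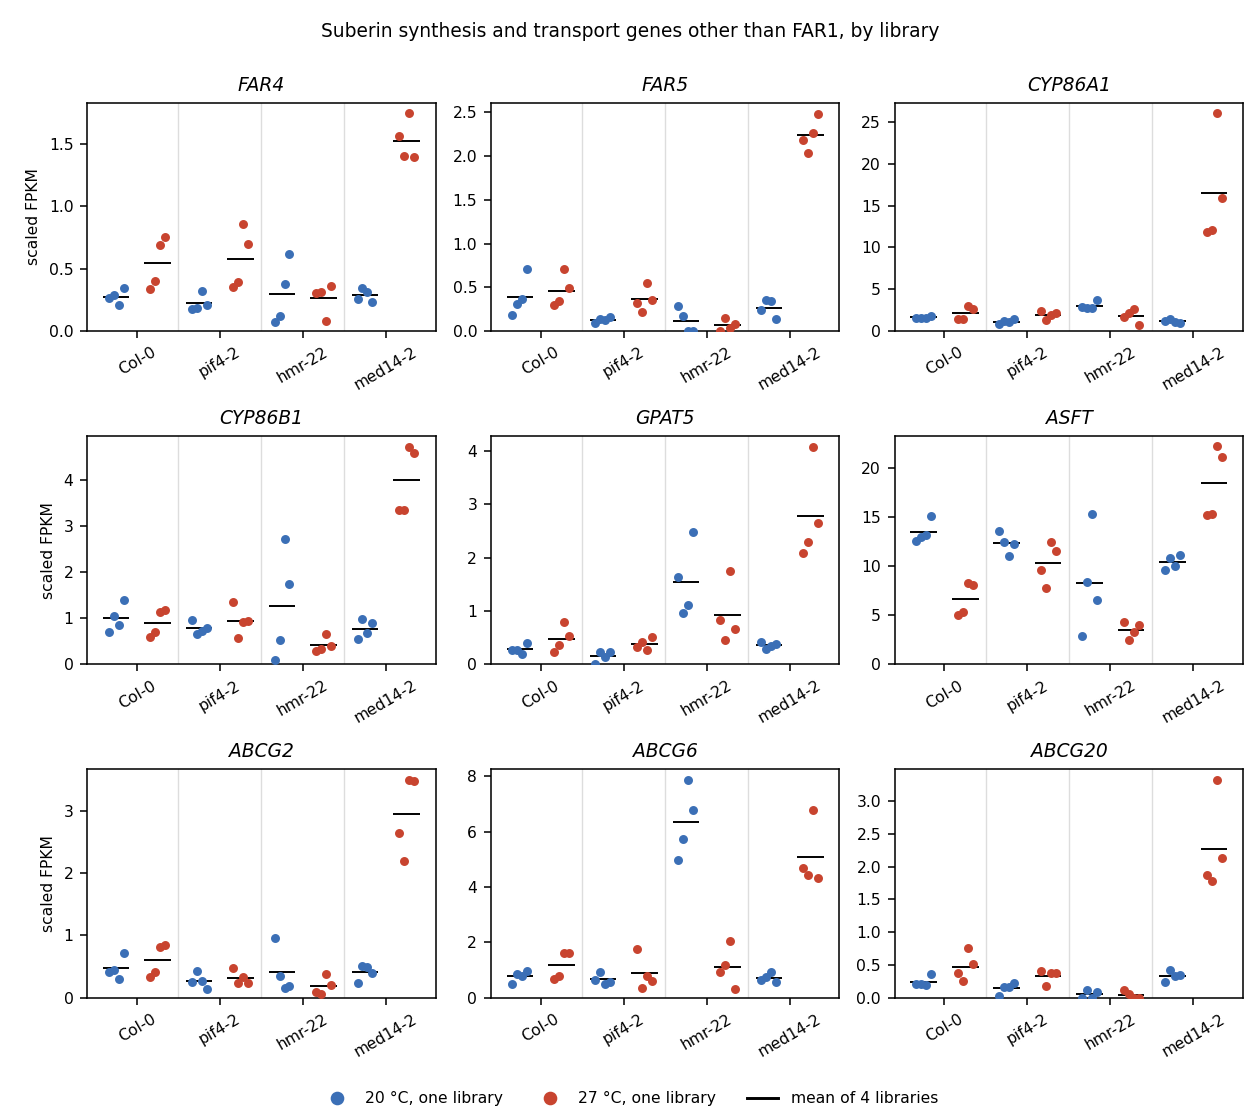
Scaled FPKM (linear axis from 0, scaled for each gene) of 9 suberin synthesis and transport genes in the 32 libraries, with blue points at 20°C, red points at 27°C, and a line at the mean of 4 libraries. The 4 *med14-2* libraries at 27°C are above all Col-0 libraries in each gene, and *ABCG6* is also high in *hmr-22* at 20°C, between 4.96 and 7.88. Of all genes, 14.6% had every *med14-2* library above every Col-0 library at 27°C.

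The difference of the warm response between *med14-2* and Col-0 passed for 8 members upward and 8 downward, where 2.03% and 4.37% of all genes passed. Those upward were *CYP86A1* (3.21 ± 0.37, adjusted p = 6.50e-07), *CYP86B1* (2.18 ± 0.54, adjusted p = 0.00948), *FAR5*, *ABCG2*, *ABCG6*, *GPAT5*, *ASFT*, and *ABCG20*, all of suberin synthesis or transport. *FAR4* missed at 1.16 ± 0.36 (adjusted p = 0.0523). Downward were *FAR1* (−3.41 ± 0.39, adjusted p = 5.97e-07), *KCS12* (−2.58 ± 0.41, adjusted p = 5.18e-05), *MAH1*, *WSD1*, *KCS1*, *CER2*, *CER6*, and *CER3*. The direction of *MAH1* and *WSD1* was fixed by the filter. *KCS1*, *CER6*, and *CER3* lost the call in 8 or 9 of the fits that left out 1 library. *FAR1* in *med14-2* was at 2.08, 1.79, 2.45, and 2.81 at 20°C and at 2.25, 3.74, 3.62, and 4.29 at 27°C, groups that overlapped.

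Against Col-0 at 27°C, 8 members were higher in *med14-2* and 3 lower, where 1.38% and 1.85% of all genes were called. *CYP86A1* (2.79 ± 0.26, adjusted p = 3.74e-09), *GPAT5* (2.07 ± 0.29), *ABCG6* (1.95 ± 0.33), *ABCG2* (1.95 ± 0.29), *CYP86B1* (1.90 ± 0.38), *FAR5* (1.84 ± 0.25), *ABCG20* (1.81 ± 0.23), and *ASFT* (1.44 ± 0.27) were higher. *FAR1* (−2.19 ± 0.28, adjusted p = 7.71e-07), *CYP86A4* (−1.5 ± 0.30), and *MAH1* were lower, the last with no fragment in *med14-2* at 27°C against 207 in Col-0, at least 59.5-fold. *CYP86B1* lost its call in all 8 fits that left out 1 library (1.75 to 2.01), *CYP86A4* in 7 (−1.58 to −1.39), and *ASFT* in 4 (1.32 to 1.37). Without replicate 1 of Col-0 at 27°C, 7 members were called in place of 11.

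At 20°C the suberin genes did not pass between *med14-2* and Col-0, and 2 members were higher, where 1.24% of all genes were higher and 0.717% lower. *KCS12* was at 2.04, 2.02, 3.21, and 2.36 in *med14-2*, above every Col-0 library (1.88 ± 0.29, adjusted p = 2.38e-05). *KCS1*, another condensing enzyme, was at 41, 45.4, 64.5, and 71.2 against 20.6, 19.4, 25.9, and 29.8 in Col-0 (1.19 ± 0.23, adjusted p = 0.000535), and lost its call without scaling and without replicate 1, 2, or 3 of Col-0 or replicate 3 or 4 of *med14-2*, leaving 1 member. No member was lower, with 3 at an unadjusted p under 0.05 by limma and 1 called by voom. Without scaling the split was 2 higher and 1 lower, with *FAR1* in place of *KCS1* and *CER4*, the reductase that makes wax alcohols, as the lower one.

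Other suberin genes, not members, also rose in part in *med14-2*. Their list was chosen with earlier results of these data known, so it is no independent test. Of 11 listed genes, 9 were tested, and 5 were called higher with warmth, namely *MYB93* (2.42 ± 0.32), *FACT* (2.22 ± 0.29), *GPAT7* (1.58 ± 0.27), *ABCG16* (1.42 ± 0.20), and *MYB9* (1.20 ± 0.23). None of the 9 was called with warmth in Col-0 or *pif4-2*, and their median change in *med14-2* was 1.23. Of all genes, 1.62% were called higher with warmth in *med14-2*. Against Col-0 at 27°C, 4 of the 9 were higher, where 1.38% of all genes were. The warm response was higher than in Col-0 for 3 of the 9, where 2.03% of all genes passed. The summed level of the 11 genes was 4.96 to 5.76 at 20°C and 11.1 to 15.7 at 27°C in *med14-2*, and 4.78 to 7.09 in Col-0 at 27°C.

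Suberin is made in the endodermis, and markers of that tissue differed with the genotype. At 27°C the summed level of 9 Casparian strip and endodermis genes was 32.3 to 58.4 in Col-0 and 71.1 to 117 in *med14-2*, with 3 of the 9 called higher and none lower and a median difference of 0.86. At 20°C the sums were 73.4 to 92.2 and 99.6 to 123, and none of the 9 was called between these genotypes. With warmth in Col-0, 2 of the 9 were called lower and none higher (median change −0.77), where 2.99% of all genes were lower. From 20°C to 27°C in *med14-2*, none of the 9 was called higher and 1 was lower (*CASP5*, −2.57), and their median change was −0.01, while that of the 10 suberin members was 2.18. None of the 9 was at 0 in these groups. Leaf mesophyll genes moved in these libraries too. Their sum over 5 genes was 28390 to 32200 at 20°C and 11080 to 13100 at 27°C in *med14-2*, and 23850 to 27200 and 15820 to 18850 in Col-0. With warmth 3 of the 5 were lower in *med14-2* (median −1.20) and none in Col-0, and 2 were lower than in Col-0 at 27°C. Of 8 root hair and root genes, none was higher at 27°C in *med14-2* than in Col-0 and 1 was lower. Of all genes, 1.62% were called higher and 2.83% lower with warmth in *med14-2*, and 1.38% and 1.85% against Col-0 at 27°C. The part of endodermal or mesophyll tissue in the difference from Col-0 was not tested.

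**Figure D3:**
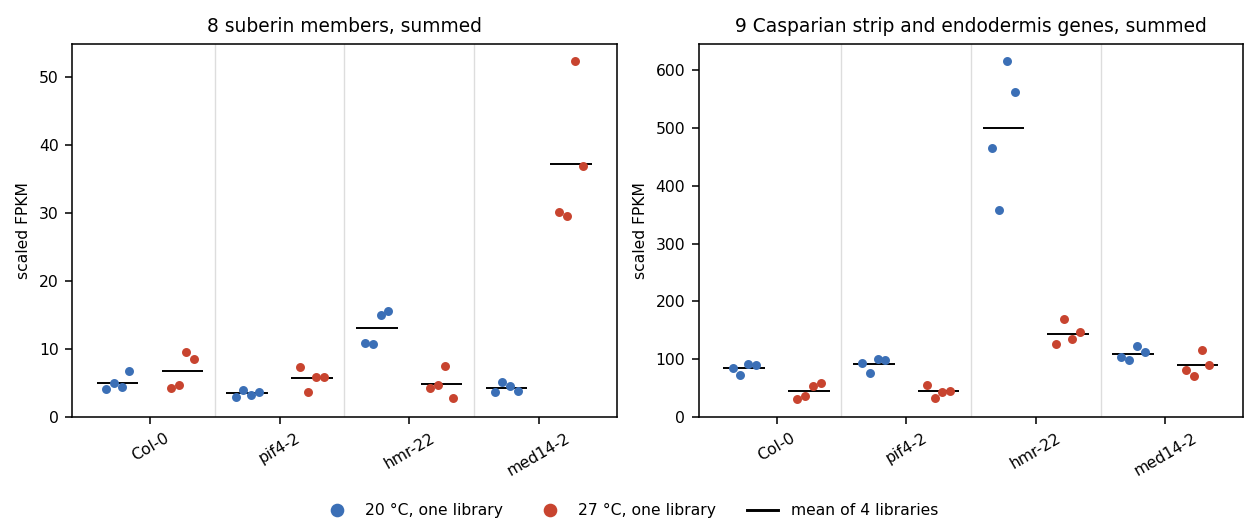
Summed scaled FPKM (linear axis from 0) of the 8 suberin members that rose in *med14-2* (left) and of 9 Casparian strip and endodermis genes (right), for each library, with blue points at 20°C, red points at 27°C, and a line at the mean of 4. On the left *med14-2* at 27°C spans 29.6 to 52.4 against 4.33 to 9.53 in Col-0. These 8 were picked by their call in *med14-2*, so the direction of that gap was fixed by the choice. All 10 suberin members summed to 47.7 to 78.3 in *med14-2* and to 23.5 to 38.2 in Col-0 at 27°C. On the right *med14-2* at 27°C spans 71.1 to 117, near its own range at 20°C.

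The DNA just before the suberin genes is shown because they moved together. The windows below are the 250 bases upstream of the annotated gene start (RefSeq TAIR10.1, on the gene's strand), with *CYP86A1* for the largest change and *CYP86B1*, *ABCG2*, and *ABCG6* for holding ACCNAC, the core of AC elements that MYB factors are known to bind. Capitals mark that core on either strand (GTNGGT on the other).
CYP86A1, chr5:23768112-23768361, minus strand: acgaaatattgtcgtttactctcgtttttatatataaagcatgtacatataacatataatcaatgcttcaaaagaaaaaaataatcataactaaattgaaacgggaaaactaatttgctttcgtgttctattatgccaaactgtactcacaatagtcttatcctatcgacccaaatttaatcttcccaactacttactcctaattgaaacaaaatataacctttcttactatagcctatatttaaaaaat
CYP86B1, chr5:7805969-7806218, minus strand: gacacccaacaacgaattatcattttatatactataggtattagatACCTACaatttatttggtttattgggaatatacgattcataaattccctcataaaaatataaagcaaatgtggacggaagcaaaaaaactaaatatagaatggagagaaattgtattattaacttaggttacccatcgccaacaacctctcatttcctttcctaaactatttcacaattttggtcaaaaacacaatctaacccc
ABCG2, chr2:15675921-15676170, minus strand: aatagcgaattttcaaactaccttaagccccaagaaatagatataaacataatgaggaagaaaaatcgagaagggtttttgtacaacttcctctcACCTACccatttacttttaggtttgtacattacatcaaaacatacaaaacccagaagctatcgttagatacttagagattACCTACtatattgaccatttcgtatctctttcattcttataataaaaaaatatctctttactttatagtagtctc
ABCG6, chr5:4370442-4370691, plus strand: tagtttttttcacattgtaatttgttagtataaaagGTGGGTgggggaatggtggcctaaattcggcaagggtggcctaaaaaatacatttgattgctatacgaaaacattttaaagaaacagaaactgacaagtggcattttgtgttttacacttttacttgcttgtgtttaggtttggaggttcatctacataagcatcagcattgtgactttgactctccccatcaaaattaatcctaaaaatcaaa
The core was in the windows of 3 of the 10 suberin members, of 12 of all 41 members, and of 23.6% of 27444 nuclear genes. The G-box CACGTG was in 1 member window, that of *MYB41*, against 6.49% of genes, and CACATG, the other motif of PIF factors, in 10 of 41 against 11.1%. GCCGCC was in 1 member window, that of *GPAT6*, against 1.87%.

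In the libraries labelled *hmr-22*, 1 member was called higher with warmth and 7 lower, where 13.8% of all genes were higher and 8.3% lower. *KCS12* was the one that rose, from 0.533, 0.5, 0, and 0.0922 to 12.6, 14.6, 11.1, and 11.8 (4.75 ± 0.29, adjusted p = 1.84e-14). *ABCG6* went down from 4.96, 5.73, 7.88, and 6.77 to 0.937, 1.17, 2.05, and 0.314 (−2.42 ± 0.33, adjusted p = 2.20e-07). *HTH* went from 20.1, 14.0, 11.5, and 15.1 to 2.79, 3.21, 3.13, and 3.22 (−2.18 ± 0.15, adjusted p = 4.61e-13). *PAS2*, from 237 to 372 at 20°C to 67.8 to 92.4 at 27°C (−1.99 ± 0.16), and *BDG1*, from 24.1 to 29.6 to 6.94 to 10.4 (−1.66 ± 0.16), were next, and *KCS20*, *CER10*, and *LTPG1* fell by 1.40, 1.36, and 1.18. Without scaling the split turned to 4 higher and 3 lower, and only *ABCG6*, *HTH*, and *PAS2* were still called lower.

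Of the 8 members that rose in Col-0, only *KCS12* was called in *hmr-22* with scaling. Without scaling, *MYB96* was called higher too. Its scaled levels were 0.886 to 3.96 at 20°C and 2.42 to 6.69 at 27°C, groups that overlapped. *CER1* was at 0 to 0.441 at 20°C and 0 to 0.260 at 27°C, and *FAR1* at 0 to 0.619 and 0.273 to 0.938. *DCR* was at 3.06 to 6.61 and 2.1 to 3.44. The difference of the warm response from Col-0 passed downward for 25 members and upward for 1, where 16.5% and 29% of all genes passed. Among them were *FAR1* (−3.28 ± 0.39), *CER1* (−2.85 ± 0.39), *ABCG6* (−2.84 ± 0.47), and *DCR* (−2.74 ± 0.27, adjusted p = 2.44e-09). *MAH1*, also among the 25, had 5, 0, 0, and 0 fragments at 20°C and none at 27°C, and its direction was fixed by the filter. The same holds for *WSD1*, among the 25 and at 0 in every *hmr-22* library. Without scaling, 17 passed downward and none upward. *ABCG12* and *GPAT5* lost the call in 10 of the 16 fits that left out 1 library (−0.49 to −0.41 and −1.07 to −0.84), *CYP86A1* and *KCS12* in 3, and *LACS2* in 2.

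Against Col-0 at 27°C, 13 members were lower in *hmr-22* and 1 higher, where 24% of all genes were lower and 23.6% higher. *FAR1* (−4.45 ± 0.28, adjusted p = 3.25e-15), *CER1* (−4.31 ± 0.28, adjusted p = 5.35e-15), *HTH* (−3.44 ± 0.15, adjusted p = 7.86e-19), and *LACS1* (AT2G47240), a long-chain acyl-CoA synthetase of wax and cutin synthesis, were among them. *LACS1* was at 18.3, 18.2, 18.7, and 19.5 in Col-0 and at 4.77, 3.14, 2.98, and 2.80 in *hmr-22* (−2.40 ± 0.19). *LACS2*, its paralog in cutin synthesis, was at −2.17 ± 0.16. *MAH1* and *CER4* had no fragment in *hmr-22* at 27°C, so Col-0 was at least 21.6-fold and 16.7-fold higher. *ABCG12*, a wax exporter, was the one called higher (1.15 ± 0.13), but at −0.44 without scaling, where 31 members were called lower and none higher. The groups overlapped for *KCS2* (−1.12 ± 0.27), which lost its call in 5 fits that left out 1 library, and *BDG1* lost it without replicate 3 of Col-0 (−1.0).

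At 20°C, 9 members were higher and 4 lower in *hmr-22* than in Col-0, where 21.5% of all genes were higher and 28% lower. The 4 lower were *LACS1*, at 2.46, 4.53, 1.56, and 1.68 against 20.0, 19.4, 19.8, and 21.8 (−2.98 ± 0.19, adjusted p = 3.95e-15), *CER4*, at 0, 0, 0.763, and 0 against 2.26, 2.05, 1.5, and 1.80 (−2.59 ± 0.33), *LACS2* (−1.53 ± 0.16), and *CER1* (−1.46 ± 0.28). All 4 were also lower without scaling. The 9 higher, among them *ABCG6* (2.69 ± 0.33), *PAS2* (2.39 ± 0.16), and *KCS1* (1.81 ± 0.23), were not called without scaling, and 7 of them turned to a negative sign, leaving 0 higher and 17 lower. Whether these 9 are higher in *hmr-22* therefore depends on the scaling.

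**Figure D4:**
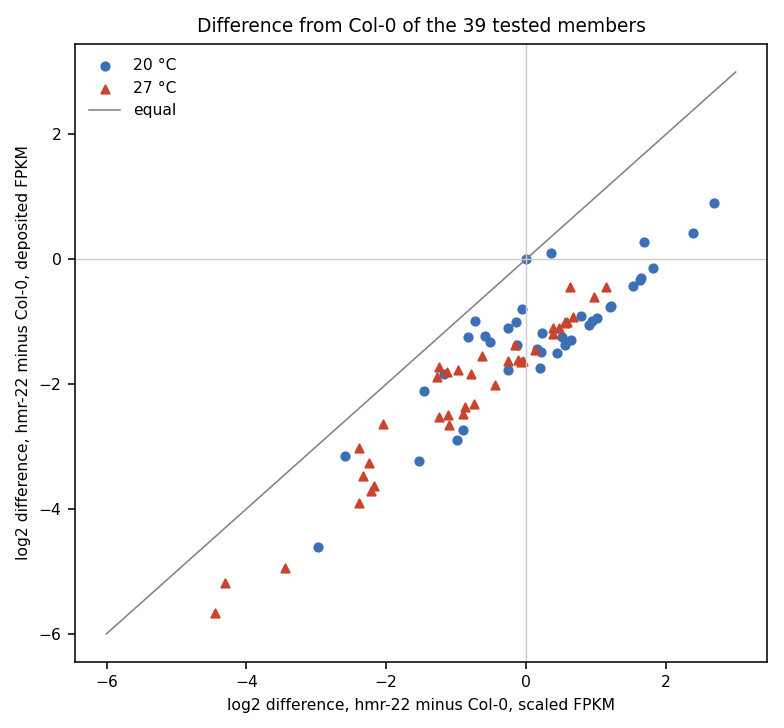
Log2 difference of *hmr-22* from Col-0 for the 39 tested members with scaled FPKM (x axis) and with deposited FPKM (y axis), with circles at 20°C, triangles at 27°C, and a line where both are equal. Nearly all points lie under the line, and members on the right of 0 on the x axis are mostly below 0 on the y axis, while *LACS1* is far below 0 on both (−2.98 and −4.61 at 20°C).

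Markers of the shoot epidermis, which makes the cuticle, were present in every group. In Col-0, 5 such genes (*ATML1*, *PDF1*, *PDF2*, *HDG2*, *ACR4*) summed to 116 to 131 (20°C) and 119 to 131 (27°C), and none was called with warmth in *med14-2*, *pif4-2*, or Col-0. In *hmr-22* the sum was 179 to 283 at 20°C and 37.3 to 50.5 at 27°C, which was carried by *PDF1* (means of 192 and 11). With warmth in *hmr-22*, *PDF1* was called lower and *ACR4* higher, where 8.3% of all genes were lower and 13.8% higher. The median of the 5 was 0.15. Against Col-0, 1 was higher and 2 lower at 20°C, and 0 and 2 at 27°C. Of all genes, 21.5% were higher and 28% lower at 20°C, and 23.6% and 24% at 27°C. With 5 genes, these counts are no result about the epidermis. Genes of seeds, where suberin and cutin are also made, summed to 40.7 to 80.0 in *hmr-22* at 27°C and to 1.19 to 2.51 in Col-0. The part of these markers in the *hmr-22* differences was not tested.

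Other wax and cutin genes outside the members moved in both directions. Of 32 tested, 5 rose and 1 fell with warmth in Col-0, 4 and 2 in *pif4-2*, 2 and 4 in *hmr-22*, and 4 and 6 in *med14-2*. As shares of all genes, 2.24% and 2.99%, 3% and 2.7%, 13.8% and 8.3%, and 1.62% and 2.83% were called in these comparisons, so the counts in *hmr-22* are no result about the list. In Col-0, AT5G33370 (3.81 ± 0.20), *CYP86A7* (1.59 ± 0.16), *ABCG13* (1.51 ± 0.27), *MYB106* (1.43 ± 0.26), and *KCS13* (1.04 ± 0.21) rose, and *LTL1* fell by 1.18. AT5G33370 had a mean of 5.67 in Col-0 and 6.20 in *pif4-2* at 27°C, and was listed at 0 in all 8 *hmr-22* libraries. In *med14-2*, *KCS16* (−2.12 ± 0.17), *LTL1* (−1.85 ± 0.20), *LTPG2* (−1.28 ± 0.24), *DEWAX* (−1.18 ± 0.20), *KCS19* (−1.12 ± 0.16), and *KCS8* (−1.10 ± 0.20) fell.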

How the data were processed

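The authors mapped paired-end stranded mRNA reads to TAIR10 in CLC Genomics Workbench and deposited FPKM per gene for 32 libraries. Default strand-specific settings were used. Multiplying by exon length and 1 total per library gave whole fragments (tolerance 0.05) for 99.22 to 99.28% of the lower values, and so the depths. The filter asked for 0.5 FPKM in 4 libraries. FPKM were scaled by an unweighted trimmed mean of M values (30% of M and 5% of A trimmed) and fitted by limma on log2(FPKM + 0.25), which understates changes of low genes, with 8 group means, trend, and robust variances. P values were adjusted by Benjamini-Hochberg over 19937 genes. The labels call the replicates biological. The members and gene lists were chosen with earlier results of these data known. All 41 are named. Values per library and full tests are given for members called with warmth in Col-0 and for up to 5 of the largest called in each other comparison. Alternatives were median-ratio or no scaling, pseudocounts of 0.1 and 1, voom on fragments, a replicate block, no filter, fits without *hmr-22* or of the compared groups alone, and each library left out. The model was tested on simulated data. Python 3.11.15 and R 4.3.3 were used, with limma 3.58.1. The names of the endodermis genes called between *med14-2* and Col-0 are not reported here.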

Additional observations from a re-analysis of the deposited data

Results flagged for a closer look

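In 251 groups of 4 libraries with a mean of at least 0.5 scaled FPKM, 5 had a library far from the other 3 by Dixon's test, where chance flags about 1 in 20. They were *CER2* in *pif4-2* at 27°C (26.3), *KCS20* (36.9) and *BDG1* (13.7) in *pif4-2* at 20°C, *DCR* in *hmr-22* at 27°C (2.1), and *ABCG6* in *med14-2* at 27°C (6.78).

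The change with warmth differed between *pif4-2* and Col-0 by the interaction term in limma (adjusted p under 0.05). It was lower in *pif4-2*, in log2 units, for *FAR1* (−2.48), *MAH1* (−2.31).

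The change with warmth differed between *hmr-22* and Col-0 by the interaction term in limma (adjusted p under 0.05). It was lower in *hmr-22*, in log2 units, for *FAR1* (−3.28), *CER1* (−2.85), *ABCG6* (−2.84), *MAH1* (−2.74), *DCR* (−2.74), *HTH* (−2.46), *CYP86A4* (−2.18), *BDG1* (−2.05), *PAS2* (−1.80), *GPAT6* (−1.73), *KCS1* (−1.69), *CYP77A6* (−1.47), *KCS20* (−1.35), *CER10* (−1.27), *LTPG1* (−1.26), *WSD1* (−1.24), *GPAT5* (−1.06), *CYP86A1* (−1.04), *GPAT4* (−1.01), *CER2* (−0.94), *CER6* (−0.87), *CER3* (−0.67), *LACS2* (−0.64), *KCR1* (−0.53), *ABCG12* (−0.48). It was higher for *KCS12* (1.14).

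The change with warmth differed between *med14-2* and Col-0 by the interaction term in limma (adjusted p under 0.05). It was lower in *med14-2*, in log2 units, for *FAR1* (−3.41), *KCS12* (−2.58), *MAH1* (−2.35), *KCS1* (−1.05), *WSD1* (−0.99), *CER2* (−0.98), *CER6* (−0.79), *CER3* (−0.61). It was higher for *ABCG20* (1.57), *ASFT* (1.80), *GPAT5* (1.87), *ABCG6* (2.02), *ABCG2* (2.08), *FAR5* (2.1), *CYP86B1* (2.18), *CYP86A1* (3.21).

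For *MAH1* and *WSD1*, which were at 0 in many libraries, these fitted values depend on the pseudocount, and their direction was fixed by the filter.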

How the results depend on the processing

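Of the 121 called changes of single members, 118 held with median-ratio scaling, 120 without a filter, 116 and 112 with pseudocounts of 0.1 and 1, 117 by voom, and 94 without scaling, as did 58 of 60 without the *hmr-22* libraries and 109 of 119 in fits of only the groups compared. Without scaling, 8 turned sign, all in *hmr-22* against Col-0: at 20°C *ABCG12* (−0.33), *CER10* (−0.76), *CER3* (−0.31), *CER6* (−0.43), *KCR1* (−0.95), *KCS1* (−0.14), and *LTPG1* (−0.75), and at 27°C *ABCG12* (−0.44). Without scaling, 13 members were called with warmth in Col-0, 31 in *hmr-22* against Col-0 at 27°C, and 17 for the difference of the *hmr-22* response. For *med14-2* against Col-0 at 20°C, 4 were called by voom, 4 without the *hmr-22* libraries, and 5 in a fit of only the groups compared. For the difference of the *pif4-2* response, 4 were called without the *hmr-22* libraries and 4 in a fit of only the groups compared. The cause was not tested.

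With 1 library left out, counts of members called with warmth were 6 to 8 in Col-0, 5 to 7 in *pif4-2*, 8 to 10 in *hmr-22*, and 10 to 11 in *med14-2*. Against Col-0 they were 0 at 20°C and 1 to 2 at 27°C in *pif4-2*, 12 to 14 at both temperatures in *hmr-22*, and 1 to 3 and 7 to 9 in *med14-2*. For differences of response they were 1 to 2, 21 to 27, and 12 to 16 in *pif4-2*, *hmr-22*, and *med14-2*. Same-number replicates had all 4 correlations over 0.1 in 3 of 28 group pairs. The mean correlation was 0.0812 for replicates of the same number and −0.027 for those of different numbers. The numbers thus did not pair the libraries in most groups, and these values do not settle whether some groups are paired. With a replicate block all 121 changes stayed called, and 8, 8, 9, and 11 members were called with warmth in the wild type, *pif4-2*, *hmr-22*, and *med14-2*, in that order.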
